A study of Mus musculus with 3 samples.

Results

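The nuclear factor I (NFI) family consists of the transcription factor genes Nfia, Nfib, Nfic and Nfix. Its members were the probes whose symbol in the array's annotation is one of these names, which gave 7 of 38880 probes and 4 of 19882 named genes. Nfia had 3 probes, Nfib 2, Nfic 1 and Nfix 1. NFI proteins share a DNA-binding domain and bind as dimers to a palindrome whose arms read TTGGC and GCCAA. They activate some genes and repress others. In the developing mouse brain Nfia, Nfib and Nfix are known from mutants for roles in astroglial differentiation and in the migration and maturation of cerebellar granule neurons, the small neurons that make up most cells of the cerebellum.

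The study measured RNA of mouse cerebellum dissected at postnatal day 10 on 3 arrays with 2 dyes each. The mutant samples came from C57Bl/6 mice in which Smarca5 was knocked out conditionally (Smarca5 cKO), and the controls were wild-type C57Bl/6 mice of the same age. Smarca5, also named Snf2h, encodes an ATPase that slides nucleosomes along DNA. Each array paired 1 cKO sample with 1 wild-type sample. The cKO carried Cy5 on arrays 1 and 2 and Cy3 on array 3. The sources used here name neither the Cre line behind the knockout nor the cells it acts in, and do not say whether a sample came from 1 animal or a pool. The p-values therefore reflect only how these arrays vary among themselves, and that variation may be technical.

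All values below are log ratios of cKO over wild type, read as log2, so a value below 0 means less RNA in the cKO. The log base is not stated and fold changes hold only for base 2. The deposited values hold no intensities, so levels of different genes cannot be ranked and the brightness of a spot over background is unknown. Nor can the presence of cerebellar marker RNA be read from ratios. Since RNA came from dissected cerebellum, fewer cells of a type, less RNA per cell and a difference in the tissue dissected cannot be told apart. The median of all 28206 features tested (19862 genes and 8344 probes kept single for want of a gene symbol or of an Nfi symbol on the array) was 0.

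Smarca5 itself averaged -0.86 ± 0.11 (SD, n = 3), with values of -0.74, -0.95 and -0.88 on arrays 1, 2 and 3. Its 2 probes averaged -1.28 ± 0.15 and -0.44 ± 0.26. The second bears a clone name on the array and was assigned to Smarca5 only through updated symbols. Probes of that kind were kept out of the Nfi values, and without it Smarca5 averaged -1.28. Whether either probe lies in the deleted part of the gene was not determined. Which channel stands on top of the ratio was taken from the labels and from the lower Smarca5, so this value is no independent check of them. The labels name array 3 as the dye flip, and its ratios were used with the sign as deposited. Of 53 spots over 5 in size and of 1 sign on arrays 1 and 2, picked with no condition on array 3, all 53 had the opposite sign there, in the way of spots that follow the dye rather than the sample. This count was added after the values were seen. The values of the family depend on that orientation: with the sign of array 3 turned the means of the 4 genes would lie between -0.51 (Nfib) and -0.20 (Nfix).

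All 4 Nfi genes were lower in the cKO cerebellum on each of the 3 arrays. Nfib had the lowest ratio, at 0.339 of the wild-type level, followed by Nfia, Nfix and Nfic. No Nfi gene passed the threshold of 0.05 on p-values from limma, adjusted over all features by the Benjamini-Hochberg method, and 0 of 28206 features did, which is a background of 0% called. The lowest adjusted p of any feature was 0.0838, a value that Nfib shared with other genes, Etv1, Gabrd and Wnt7a among them. At an unadjusted p under 0.05, limma called 5896 features. All 4 Nfi genes were among those lower at this mark, which held 9.99% of all features, but Nfic missed it without array 2 (mean -0.40) and without array 3 (mean -0.58). Being below 0 on all 3 arrays was found for 21.5% of features.

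Nfib, required in mice for lung and brain development, had ratios of -1.72, -1.38 and -1.58 on arrays 1, 2 and 3. All arrays lay far below 0, array 1 the farthest. Nfib thus averaged -1.56 ± 0.17 (SD, n = 3), or 2.95-fold lower in the cKO (limma, adjusted p = 0.0838). Of the 28206 features, 106, or 0.376%, had a lower mean. For its probes UT11226 and UT35751 taken singly, 0.196% and 0.903% of all single probes had a lower mean.

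Nfia, which takes part in the onset of glia production in the spinal cord of mouse and chick, had ratios of -1.18, -0.83 and -0.87. Array 1 was the lowest and the other two lay close together. The mean was -0.96 ± 0.19 (SD, n = 3), or 0.513 of the wild-type level (limma, adjusted p = 0.089). A lower mean was found for 569 features, 2.02% of those tested.

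Nfix, a regulator of neural and muscle stem cells in mice, had ratios of -0.68, -0.71 and -0.80. These were the most even of the family over the arrays. The mean was -0.73 ± 0.06 (SD, n = 3), or 0.603 of the wild-type level (limma, adjusted p = 0.095), and 4.5% of features had a lower mean.

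Nfic, best known in mice for the growth of tooth roots, had ratios of -0.26, -0.91 and -0.54. The arrays spread widely here, with array 1 nearest to 0 and array 2 farthest. The mean was -0.57 ± 0.33 (SD, n = 3), or 0.674 of the wild-type level (limma, adjusted p = 0.192), and 7.93% of features had a lower mean.

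**Figure D1:**
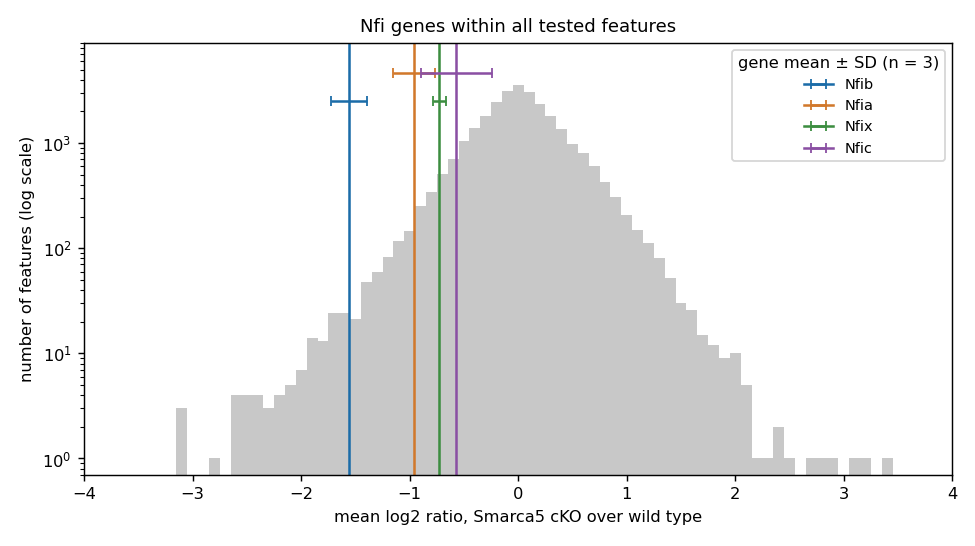
Number of tested features (vertical axis, log scale) by their mean log2 ratio of Smarca5 cKO over wild type (horizontal axis), with the mean of each Nfi gene as a vertical line and its SD over 3 arrays as a horizontal bar. Nfib at -1.56 stands far out in the lower tail, Nfia at -0.96 and Nfix at -0.73 lie on its slope, and the bar of Nfic at -0.57 is the widest of the 4.

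Within each array the gene average of Nfib was below that of every other family member. Single probes kept this order less strictly. On array 1 the Nfib probe UT35751 (-1.27) lay above the Nfia probes UT35085 (-1.61) and UT05258 (-1.31). On arrays 2 and 3 both Nfib probes lay below all 3 Nfia probes. Nfib minus Nfia was -0.54, -0.55 and -0.71, with a mean of -0.60 ± 0.09 (SD, n = 3). Nfib minus Nfix averaged -0.83 ± 0.19 and Nfib minus Nfic -0.99 ± 0.50. Nfia lay below Nfix on all 3 arrays as well, by -0.23 ± 0.24 on average, a difference about as large as its own SD. Nfic did not keep its place: on array 2 it was lower than both Nfia and Nfix, and on the other arrays higher. Nfia minus Nfic averaged -0.39 ± 0.50 and Nfix minus Nfic -0.16 ± 0.32. In the exact two-sided sign-flip permutation test over arrays the first 4 of these 6 pairs had p = 0.25, the smallest value that 3 arrays allow, and the pairs of Nfic with Nfia and Nfix had p = 0.5. Adjusted over the 6 pairs the p-values were 0.375 and 0.5, so the order of the genes is a description.

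Nfix and Nfic have 1 probe each, whose values are those of the gene, so single probes add detail for Nfia and Nfib. All 7 probes of the family were below 0 on all 3 arrays, against 21.8% of the 38753 single probes tested, and all 7 had an unadjusted p under 0.05 and a lower level in the cKO, against 10.4% of probes. None passed the adjusted threshold in the limma fit of single probes, and neither did any other probe (lowest adjusted p = 0.0774).

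The 2 Nfib probes differed in size. Probe UT11226 had -2.17, -1.46 and -1.93, a mean of -1.85 ± 0.36, which is 3.61-fold lower. Probe UT35751 had -1.27, -1.30 and -1.23, a mean of -1.27 ± 0.04, or 2.41-fold lower. On each array the first probe lay further below 0 than the second.

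The 3 Nfia probes overlapped each other. Probe UT35085 had -1.61, -0.80 and -1.10 (mean -1.17 ± 0.41), probe UT05258 had -1.31, -0.96 and -0.64 (mean -0.97 ± 0.34), and probe UT07883 had -0.63, -0.73 and -0.88 (mean -0.75 ± 0.13). Their order changed from array to array, and the difference between arrays 1 and 3 ran opposite ways in UT05258 and UT07883. The low value of array 1 for the gene as a whole came from UT35085 and UT05258.

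A further 5 probes carry clone names or another spelling on the array and belong to the family only after symbols are updated through a RefSeq gene table. They were kept out of the values above. The 3 of them assigned to Nfib were all below 0 on all 3 arrays. Probe UT07146, spelled NfiB on the array, had -1.27, -1.32 and -1.12 (mean -1.24 ± 0.10), probe UT31399 averaged -1.19 ± 0.23 and probe UT30835 averaged -0.74 ± 0.36. With these probes added, Nfib averaged -1.26 ± 0.07 (SD, n = 3; limma, adjusted p = 0.0841).

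The 2 probes assigned to Nfic did not share the lower ratio of its own probe. Probe UT18111 had 0.25, 0.27 and -0.60, a mean of -0.03 ± 0.50, and probe UT32801 had -0.04, 0.11 and -0.14, a mean of -0.02 ± 0.13. With them added, Nfic averaged -0.21 ± 0.21 (SD, n = 3; limma, adjusted p = 0.485), so the lower value of Nfic rests on 1 probe. Whether these probes match the same transcripts is not known here.

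**Figure D2:**
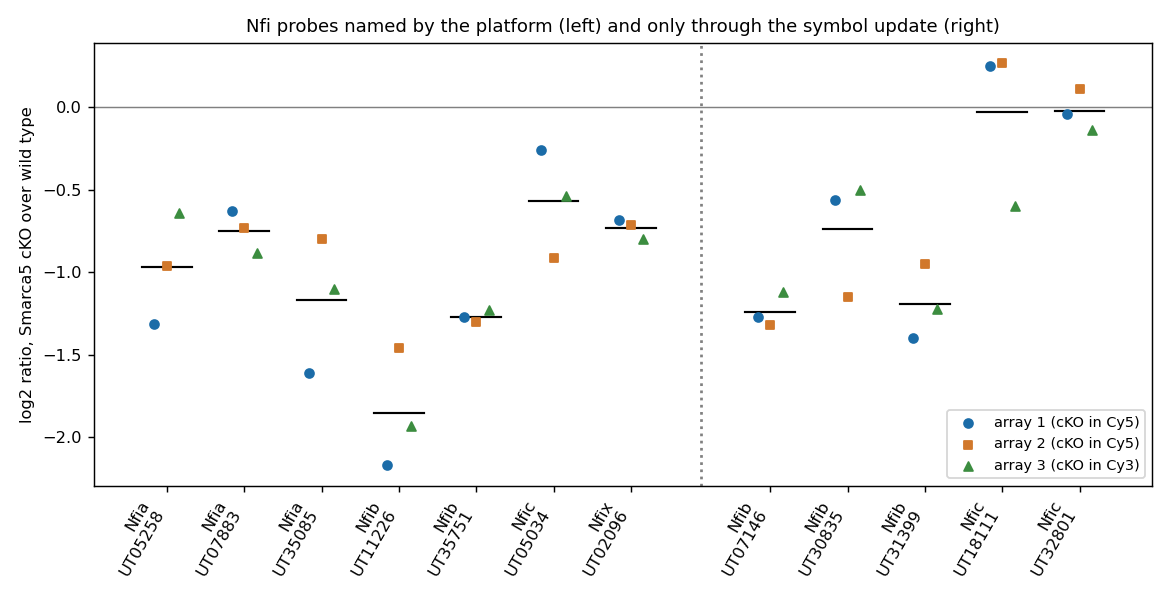
Log2 ratio of Smarca5 cKO over wild type (vertical axis) of each Nfi probe on each array, with 1 symbol per array and a black line at the mean of the 3 arrays. The 7 probes left of the dotted line bear an Nfi symbol in the array's annotation and all their values lie below 0, while of the 5 probes right of it, named only through the symbol update, the 2 of Nfic scatter around 0.

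Genes known from mouse studies to depend on NFI proteins in granule neurons were next set beside the family. The list was chosen with earlier results of these data known. It held 8 genes, all of them measured, and its median was -1.23, against a median of 0 over all features. The 10 measured general markers of granule neurons, given further below, had a median of -1.41. Of the 8, 6 were below 0 on all 3 arrays and had an unadjusted p under 0.05 in limma, none was above 0 on all 3, and none passed the adjusted threshold. The corresponding background shares are 21.5% and 9.99%.

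Wnt7a, which encodes a secreted factor of granule neurons that remodels incoming mossy fibre axons, was the lowest, with -2.18, -1.51 and -1.30 and a mean of -1.66 ± 0.46. Tiam1, an activator of the GTPase Rac in growing neurites, had -1.48, -1.20 and -1.40 (mean -1.36 ± 0.14). Both kept well clear of 0 on every array. Gabra6, the GABA-A receptor subunit that marks mature granule neurons, had -1.68 on arrays 1 and 2 but -0.67 on array 3 (mean -1.34 ± 0.58). Grin2c, an NMDA receptor subunit of mature granule neurons, averaged -1.18 ± 0.25. Cntn2, the axonal adhesion protein TAG-1 of young granule neurons, averaged -0.95 ± 0.27, and its 3 probes were all below 0 on all arrays.

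Itsn1, an endocytic scaffold protein, averaged -1.27 ± 0.81, and its value rests on array 1 and 1 of its 2 probes. That probe had -4.08, -1.21 and -1.35, whereas the other had -0.27, -0.79 and 0.10. Without array 1 Itsn1 averaged -0.81, and without array 2 it missed the unadjusted mark of 0.05. The remaining 2 genes of the list stayed near 0. The adhesion gene Cdh2 (N-cadherin) had -0.02, 0.30 and 0.19 (mean 0.16 ± 0.16), and the receptor tyrosine kinase gene Ephb1 had 0.36, 0.07 and -0.17 (mean 0.09 ± 0.27).

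Genes activated by NFI proteins in the astroglial lineage had ratios on both sides of 0. All 6 genes of that list were measured, 2 of them through updated symbols, and their median was 0.10. Gfap, the intermediate filament of astrocytes, had 0.30, 0.54 and 0.55 (mean 0.46 ± 0.14). It was the only member with an unadjusted p under 0.05 in limma (adjusted p = 0.168), and it was higher in the cKO, as were 10.9% of all features at this mark. Gfap missed the mark with any 1 of the 3 arrays left out, with means from 0.42 to 0.54. Apcdd1, a membrane inhibitor of Wnt signalling, was also above 0 on all arrays (22.1% of features were), with a mean of 0.17 ± 0.11. Mmd2 averaged 0.13 ± 0.30, Zcchc24 0.06 ± 0.19 and the glutamate transporter gene Slc1a3 -0.04 ± 0.05. The lipid-binding protein gene Fabp7, at -0.09 ± 0.06, was the only member below 0 on all 3 arrays (21.5% of features were).

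Of 3 genes linked to NFI proteins in mouse neural progenitors, of which Ezh2 and Hes1 are known as repressed by them, 1 was lower and none higher at an unadjusted p under 0.05, against 9.99% and 10.9% of all features. Ezh2, the Polycomb methyltransferase, had -0.64, -0.35 and -0.44 (mean -0.48 ± 0.14; limma, adjusted p = 0.162), below 0 on all arrays and with both of its probes. It was the member lower at the unadjusted mark, and missed that mark without array 1 (mean -0.40) and without array 3 (mean -0.49). Insc, which orients the division of progenitors, had 0.77, 0.30 and 0.01 (mean 0.36 ± 0.38). The Notch effector Hes1 had 0.35, -0.68 and 0.02 and changed sign between arrays.

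Transcription factors that work with or against NFI proteins went both ways, with 2 of 5 below 0 and 3 of 5 above 0 on all 3 arrays, against 21.5% and 22.1% of all features. At an unadjusted p under 0.05 in limma, 2 were lower (Etv1 and Ski) and 2 higher (Olig2 and Sox9), against 9.99% and 10.9% of features. Etv1, an ETS factor of maturing granule neurons, had -1.98, -2.13 and -1.77, a mean of -1.96 ± 0.18 (limma, adjusted p = 0.0838). It was lower than Nfib on each array. Ski, a corepressor that binds NFI proteins, had -0.90, -1.06 and -0.73 (mean -0.90 ± 0.17). Above 0 were Olig2, an oligodendrocyte lineage factor, with 0.65, 0.80 and 0.80 (mean 0.75 ± 0.09), and Sox9, which acts with Nfia in early glia, with 0.78, 0.69 and 0.30 (mean 0.59 ± 0.26). Sox9 missed the unadjusted mark without array 1 (mean 0.49) and without array 2 (mean 0.54). Nfatc4, a calcium-dependent factor that holds back late NFI-dependent genes in young granule neurons, averaged 0.16 ± 0.12.

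**Figure D3:**
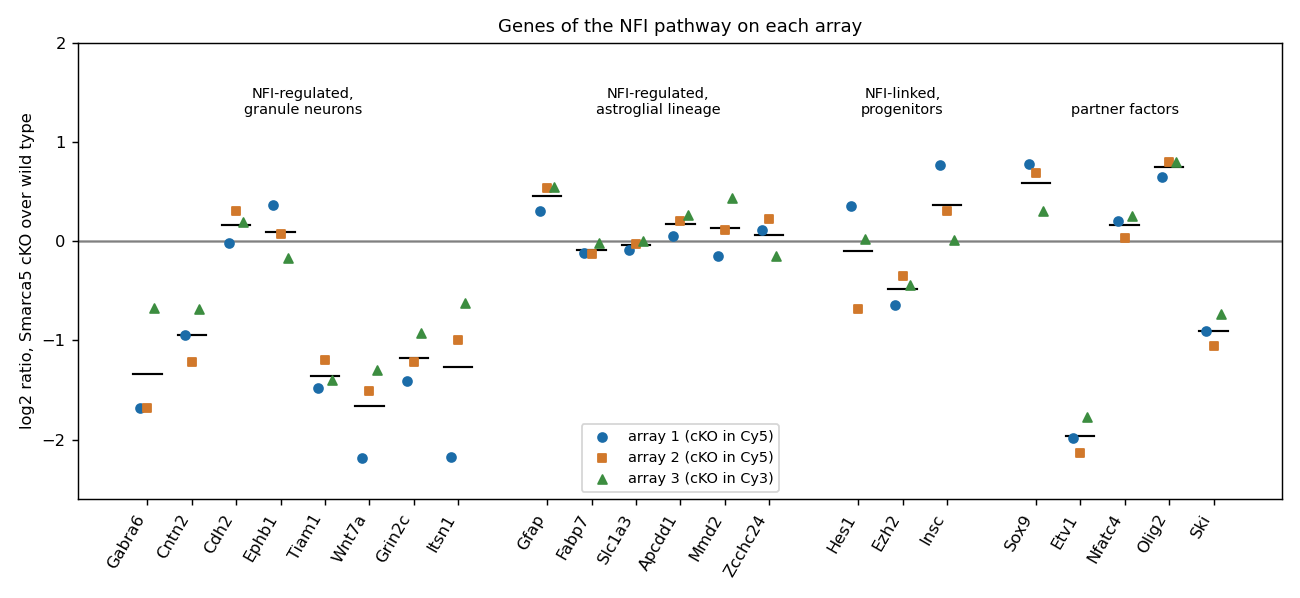
Log2 ratio of Smarca5 cKO over wild type (vertical axis) of each gene of the 4 NFI lists on each array, with 1 symbol per array and a black line at the mean. In the granule neuron list 6 of 8 genes lie below 0 on all arrays, the astroglial genes lie near 0 apart from Gfap at 0.46, and the partner factors divide into Etv1 and Ski below 0 and Sox9, Nfatc4 and Olig2 above it.

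Markers of granule neurons were mostly lower in the cKO too. Of 10 measured granule neuron markers, 9 were below 0 on all 3 arrays, against 21.5% of all features, and the mean of the 10 was -1.59, -1.47 and -0.96 on arrays 1, 2 and 3. The 2 of smallest p were Etv1 and Gabrd, a GABA-A receptor subunit of granule neurons, at -2.50 ± 0.36. Among 8 markers of granule cell progenitors, 4 were below 0 on all arrays (21.5% of features were) and 4 were mixed in sign. The list mean was -1.29, -1.03 and -0.58, and single means ran from -2.54 to -0.15. The means of both granule lists were thus nearest to 0 on array 3, the dye-flipped one, though not every member was. Nfix was farthest from 0 there, and Nfia, Nfib and Nfic were in between. Etv1 and Gabra6 are in the granule list and also in the NFI lists above, and Gfap, Slc1a3, Fabp7, Sox9 and Olig2 are likewise shared between NFI lists and glial marker lists.

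Set against the granule neuron mean of the same array, Nfib was lower by -0.13 on array 1 and -0.62 on array 3 and higher by 0.09 on array 2, so the sign of this difference varied. Nfia stood above that mean by 0.40, 0.64 and 0.09, Nfix by 0.91, 0.76 and 0.16, and Nfic by 1.33, 0.56 and 0.42. Single granule markers ran from a mean ratio of -2.50 to one of -0.39, and the means of all 4 Nfi genes lay within this range. The 10 markers of astrocytes and Bergmann glia averaged 0.10, 0.13 and 0.07, and all 4 Nfi genes lay below that mean on every array, from Nfib by -1.66 ± 0.15 to Nfic by -0.67 ± 0.35. These markers went both ways, 2 of them below 0 and 6 above 0 on all arrays, against 21.5% and 22.1% of features. The lowest was Gdf10, a growth factor gene of Bergmann glia, with -0.53, -0.67 and -0.87 (mean -0.69 ± 0.17), close to Nfix and Nfic, and the highest was Sox9.

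Markers of some other cells also lay off 0 on these arrays. All 8 microglial markers were above 0 on all arrays, against 22.1% of features, with list means between 0.97 and 0.99. All 7 genes of brainstem and midbrain neurons were above 0 on all arrays as well (background again 22.1%), with list means of 2.36, 2.15 and 1.92. Their single means ran from 0.23 to 3.39, and array 2 was the lowest for some of them and the highest for others. List means of Purkinje cells ran from -0.19 to 0.05 over the arrays, those of GABAergic interneurons from -0.14 to 0.09, those of the oligodendrocyte lineage from 0.18 to 0.29, those of the choroid plexus from 0.30 to 0.56 and those of meninges and fibroblasts from 0.16 to 0.42. These means cover members that went opposite ways. Of 7 interneuron markers, 2 were below 0 and 1 above 0 on all arrays, against 21.5% and 22.1% of features. Gad2 averaged 0.90 ± 0.14 and Tfap2a -0.74 ± 0.14. Below and above 0 on all arrays were 1 and 0 of 7 Purkinje markers and 2 and 4 of 9 oligodendrocyte markers. For choroid plexus and for meninges these counts were 1 and 4 of 6 each. The part of any of these lists in the lower Nfi ratios was not tested.

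**Figure D4:**
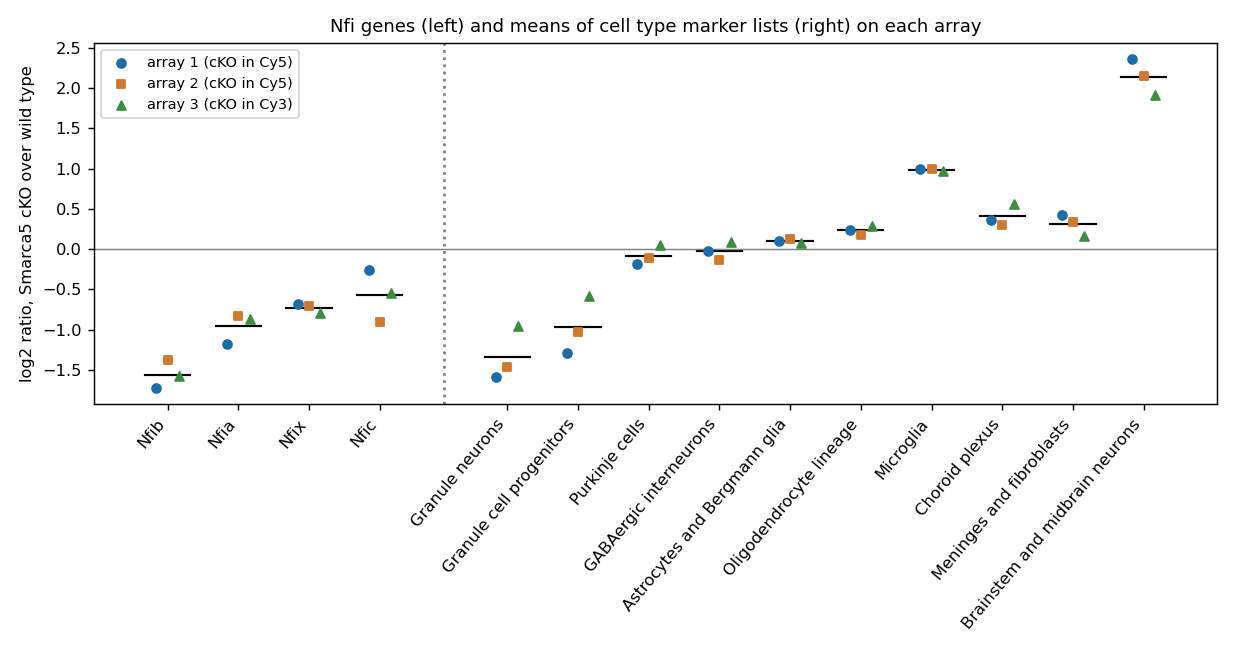
Log2 ratio of Smarca5 cKO over wild type (vertical axis) of the 4 Nfi genes and the mean log2 ratio of 10 marker lists on each array, with 1 symbol per array and a black line at the mean. The Nfi genes and both granule lists lie below 0 on all arrays, the Purkinje, interneuron and astrocyte lists near 0, and the microglial and brainstem lists above it.

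For each Nfi gene the 3 named genes with the most similar set of ratios were looked up among 17532 genes, by the root mean square difference over the 3 arrays. Nearest to Nfia were Pole2, a subunit of DNA polymerase epsilon (difference 0.040, mean -0.93 ± 0.22), Zic4, a zinc finger factor (0.050), and the olfactory receptor gene Olfr1157 (0.051). Nearest to Nfib were Cfc1 (0.050), the activity-regulated zinc finger gene Egr4 (0.068, mean -1.62 ± 0.13) and Cpsf4l (0.076). Nfix was matched by Zfp341 (0.006), Cdk2ap2 (0.025) and Tmem178 (0.027), and Nfic by Timmdc1 (0.053), Olfr972 (0.055) and Uxs1 (0.056). Over 3 arrays these matches are a description only.

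The arms of the NFI palindrome were searched in the 250 bases before annotated starts of the family and of the granule neuron list. The sequences are RefSeq's, build GRCm38.p6. TTGGC or its reverse complement GCCAA, which is this motif on the other strand, occurs in 41.5% of all 32851 windows of this length, overlaps counted. The whole palindrome (TTGGC, any 5 bases, GCCAA) occurs in 0.0365%. The windows of Nfib and Cdh2 were not analysed here. None of those of Nfia, Nfic, Nfix and the other 7 genes of the granule neuron list holds the whole palindrome. The windows of Nfia and Nfic hold no arm and 2 of the 4 annotated starts of Nfix hold 1. In the granule neuron list Gabra6, Cntn2, Tiam1 and Itsn1 hold at least 1 arm, and Wnt7a, Grin2c and Ephb1 hold none. A match of 5 letters is common and is no sign of binding. The windows of the first such Nfix start (chr8:84775829-84776078), of Gabra6 (chr11:42321073-42321322), of Cntn2 (chr1:132542941-132543190) and of Tiam1 (chr16:89974700-89974949), all on the minus strand, are printed with the arms in capitals. The arm begins 175 bases before the Nfix start, 49 before that of Gabra6, 154 and 23 before that of Cntn2 and 47 before that of Tiam1.
Nfix: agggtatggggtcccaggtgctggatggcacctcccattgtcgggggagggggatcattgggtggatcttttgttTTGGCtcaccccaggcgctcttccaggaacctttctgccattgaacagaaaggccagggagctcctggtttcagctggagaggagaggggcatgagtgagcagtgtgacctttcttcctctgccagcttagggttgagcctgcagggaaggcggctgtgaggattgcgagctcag
Gabra6: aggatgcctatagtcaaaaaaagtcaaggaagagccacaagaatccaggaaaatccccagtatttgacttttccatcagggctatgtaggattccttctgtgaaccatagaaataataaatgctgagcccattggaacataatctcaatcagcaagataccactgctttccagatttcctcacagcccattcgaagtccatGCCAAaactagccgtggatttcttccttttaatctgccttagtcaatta
Cntn2: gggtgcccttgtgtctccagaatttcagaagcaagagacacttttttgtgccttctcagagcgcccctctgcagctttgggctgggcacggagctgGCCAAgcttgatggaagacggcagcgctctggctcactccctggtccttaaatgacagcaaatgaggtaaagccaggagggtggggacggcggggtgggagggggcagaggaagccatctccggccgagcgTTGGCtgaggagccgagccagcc
Tiam1: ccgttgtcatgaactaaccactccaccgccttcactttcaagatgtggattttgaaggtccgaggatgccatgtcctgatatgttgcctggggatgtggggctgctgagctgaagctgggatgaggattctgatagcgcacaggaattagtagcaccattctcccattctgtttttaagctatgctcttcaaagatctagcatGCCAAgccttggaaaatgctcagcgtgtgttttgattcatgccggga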

How the data were processed

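RNA of Smarca5 cKO and wild-type cerebellum was compared on 3 arrays, with 1 sample of each on every array. The authors deposited 1 log ratio per probe and array, used here as log2 of channel 2 over channel 1 and centred at 0. Trizol extraction and a dendrimer labelling kit are named per the labels' protocols. Scanner, background correction, normalization and log base were not given in the sources used here.

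Of 38880 probes, 30457 had 1 symbol in the array's annotation and 8423 had none. Symbols were updated through RefSeq (18812 were current, 11220 were synonyms, 230 differed in letter case, 195 were kept), but a probe counted as an Nfi probe only by its symbol on the array. Probes of a gene were averaged on each array, and 49 unnamed spots over 5 in size on all arrays, with opposite sign on the dye-flipped array, were left out. Features with a value on all 3 arrays were tested against 0 with limma (intercept, eBayes) and adjusted by the Benjamini-Hochberg method at 0.05, on gene averages and on single probes. Residual degrees of freedom were 2, with 2.09 added by the prior, and the number of arrays limits the precision. Pearson's r across probes was 0.44 between arrays 1 and 2, 0.274 between 1 and 3 and 0.229 between 2 and 3.

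The members, gene lists and tests were chosen with earlier results of these data known, and the letter-case match was added after the values were seen. The rule for named genes took the Nfi genes, Smarca5, all NFI lists, at most 2 markers per cell type, and the 3 nearest genes of each Nfi gene, without predicted genes or clones. Alternatives were centring, scaling, quantile normalization, a dye term, replicate 3 turned, no or robust moderation, probe medians, other symbol rules, the dye spots kept, and each replicate left out. Software was limma 3.58.1 in R 4.3.3, and pandas 2.3.3 and matplotlib 3.10.9 in Python 3.11.15.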

Additional observations from a re-analysis of the deposited data

How the results depend on the processing

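Turning the sign of replicate 3 aside, Nfia ranged from -1.03 to -0.85 over the other 13 alternatives, Nfib from -1.65 to -1.26, Nfix from -0.76 to -0.69 and Nfic from -0.72 to -0.21. None of the 4 changed direction or passed the adjusted threshold in limma, whose lowest adjusted p was 0.0824 (Nfib). Nfic was nearest to 0 with the update probes added (-0.21). With replicate 3 turned, the means were -0.38 for Nfia, -0.51 for Nfib, -0.21 for Nfic and -0.20 for Nfix, and features at an unadjusted p under 0.05 numbered 554 lower and 559 higher. That setting moved the medians of the NFI lists to -0.53 (granule neurons), -0.02 (astroglial lineage) and -0.01 (partner factors). It moved the differences to -0.13 (Nfib minus Nfia), -0.31 (Nfib minus Nfix) and -0.30 (Nfib minus Nfic). Without moderation 2 features passed the adjusted threshold, none of them an Nfi gene. In that setting 4 of 8 granule neuron list genes were lower at an unadjusted p under 0.05, against 2211 of all 28206 features. Without replicate 1, limma called 1677 features lower and 1897 higher at that mark, against 2817 and 3079 with all arrays. Each value is already a ratio within 1 array, so the test against 0 is itself paired, and no further replicate block could be fitted. Signal over background is unknown, so dim probes were not filtered.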
